A study of Danio rerio with 23 samples.

Results

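Crystallin genes were examined in bulk RNA-seq libraries of zebrafish retinae collected after light-induced retinal damage (LIRD) and of control (CTRL) retinae. Members were the genes of the count table whose symbol, in any case, starts with cryaa, cryab, cryba, crybb or cryg, which leaves out the light-sensing cryptochromes. The rule found 57 of 25281 genes: 3 alpha crystallins, 7 acidic beta crystallins, 6 basic beta crystallins and 41 gamma crystallins, the last split into 32 of gamma M, 3 of gamma MX, 2 of gamma N and 4 of gamma S. Of these, 51 passed the filter on low counts and were tested. The comparison asks whether retinae that had been exposed to damaging light held more or less crystallin mRNA than control retinae, and whether the classes of crystallin differed in this.

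The 17 libraries comprised 8 of LIRD and 9 of CTRL. According to the methods, larvae were of 4 dpf and either wild-type TU or Tg(fli:gal4;UAS:mCherry). For LIRD they were exposed to 50000 lux for 3.5 h and returned to the dark for 48 h before retinae were dissected. Each library was made from a pool of 50 retinae, and an SD here is between libraries. The labels differ, giving adult fish exposed to 15000 lux for 24 h and dissected right after the exposure, with CTRL fish kept under standard light and no pools named, and neither source says which genotype went into which library. Whether the lens was taken out at dissection is stated in neither source.

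Crystallins are the main soluble proteins of the vertebrate lens, where their dense and ordered packing gives transparency and refractive power. The alpha crystallins belong to the small heat shock proteins and act as chaperones that hold unfolding proteins in solution. The beta and gamma crystallins form a separate family with a shared fold, beta as oligomers and gamma as monomers. Gamma M crystallins, rich in methionine, are the abundant gamma class of the hard fish lens. Outside the lens, alpha crystallins are also known from retinal glia and neurons under stress, and beta and gamma crystallins have been described in the retina in mammals.

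Total counts ranged from 97506021 to 150347385 in LIRD libraries and from 70932504 to 144932681 in CTRL libraries. The libraries were split here by the index numbers in their names, which state no batch. A first series (numbers 7 to 10) held replicates 1 and 2 of LIRD and of CTRL. A second series (numbers 11 to 29) held 6 LIRD and 7 CTRL libraries. Within it the CTRL libraries had numbers from 11 to 20 and the LIRD libraries from 22 to 29, so number order and condition cannot be told apart there. Replicates 5 and 11 of LIRD, and replicates 3 and 11 of CTRL, were the most alike of all 136 pairs of libraries, although each pair differed by more than counting noise. The mean chi-square per gene between their counts was 11.97 and 14.98, against 73.91 for the next pair. The labels number them as separate biological replicates, and they were kept as separate libraries. Whether a pair shared a pool was not tested. If so, the SD, SE and p-values given here count it as 2 libraries. Retinal markers were abundant: GNAT2, the cone transducin subunit, averaged 1968 CPM (counts over the TMM-scaled library size, in parts of 1e+06) in LIRD, against 2246 CPM in CTRL, and GLUL ENSDARG00000099776, the glutamine synthetase of Muller glia, 1161 CPM in LIRD, against 1162 CPM in CTRL. In tissue pools, fewer cells of a type and less RNA per cell cannot be told apart.

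Crystallin mRNA took a share of the counts that varied widely among libraries of the same condition. Together the 57 genes took 1.22% (replicate 2), a median of 2.1% and 7.29% (replicate 4) of all counts in LIRD, and 1.01% (replicate 2), a median of 1.86% and 5.08% (replicate 10) in CTRL. The mean was 2.55 ± 1.98% in LIRD (SD, n = 8) and 2.60 ± 1.5% in CTRL (SD, n = 9), a difference far smaller than either SD. LIRD replicate 4 stood above every other library, and without it the LIRD range ended at 2.75% and the LIRD mean was 1.87 ± 0.555%. The first series was at 2.16 and 1.22% in LIRD and 1.38 and 1.01% in CTRL, and within the second series the median was 2.1% in LIRD and 2.43% in CTRL.

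Gamma M genes supplied most of this RNA, at 58.3 to 81.1% of the crystallin counts in LIRD and 67.0 to 78.3% in CTRL. Acidic beta genes followed with 0.139 to 0.664% of all counts in LIRD and 0.116 to 0.596% in CTRL, and basic beta genes with 0.0919 to 0.497% in LIRD and 0.0957 to 0.580% in CTRL. The gamma N genes took 0.0210 to 0.134% in LIRD and 0.0163 to 0.120% in CTRL, and the gamma MX genes 0.0136 to 0.0705% in LIRD and 0.0126 to 0.0753% in CTRL. Alpha genes took only 0.00218 to 0.0128% in LIRD and 0.00311 to 0.0200% in CTRL. These are shares of reads, not of molecules, because gene lengths were not in the table.

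**Figure D1:**
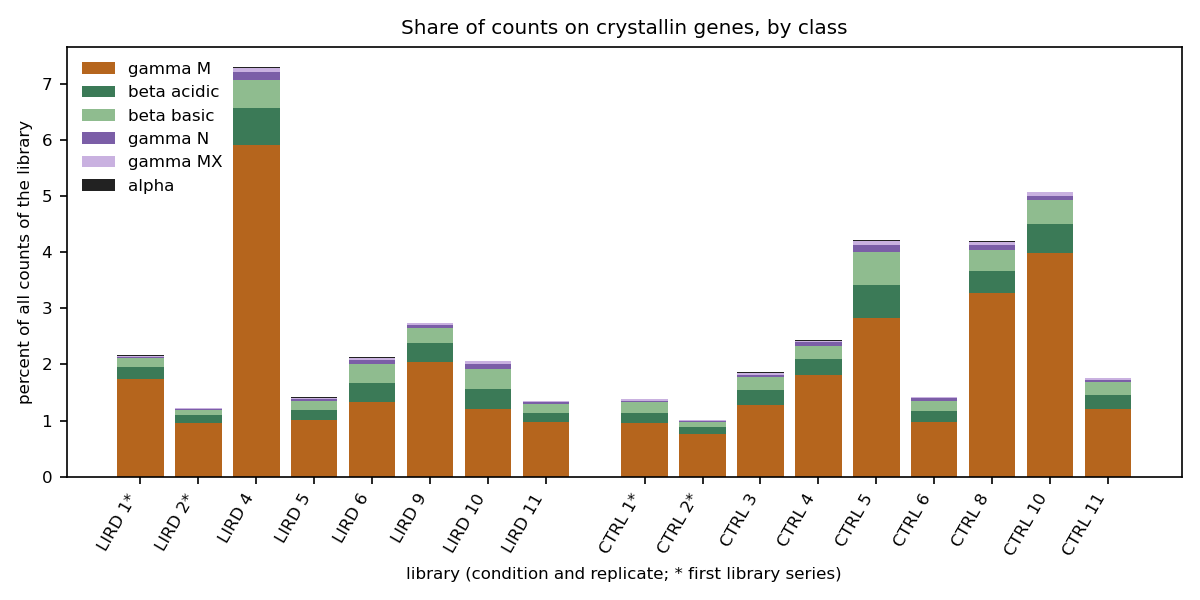
Stacked bars give the percent of all counts of each library that fell on crystallin genes, split by class, with the 8 LIRD libraries on the left and the 9 CTRL libraries on the right; gamma S counts are too few to be seen. LIRD replicate 4 reaches 7.29% and CTRL replicate 10 reaches 5.08%, while CTRL replicate 2 has 1.01%, and gamma M makes up most of each bar.

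No crystallin gene changed between the conditions by the criteria used here, a fold change over 1.5 in either direction with an FDR (Benjamini-Hochberg adjusted p over all genes tested) under 0.05. edgeR's quasi-likelihood test called 0 of the 51 tested genes, against 9 of 22503 genes in all (0.04%), and DESeq2 and limma-voom also called 0 of the 51, against 80 (0.33%) and 15 (0.0667%) genes in all. At an unadjusted p under 0.05 the count was 0 of 51 in all 3 tools, against 7.64% of all genes in edgeR, and the smallest p among the crystallins was 0.102, with an FDR of 0.697, for CRYBB3. The CPM values of LIRD and CTRL overlapped for all 51, against 0.0711% of all genes that did not overlap. Of the 51, 30 had a fitted log2 fold change above 0 (58.8%, against 53.8% of all genes), and their median was 0.06, against 0.02 for all genes.

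These directions rested on single libraries. Without LIRD replicate 4, 0 of the 51 genes had a fold change above 0 and the median was -0.47; without CTRL replicate 2, 18 were above 0, and limma-voom in place of edgeR gave 23. A score for 77 ribosomal protein genes as a covariate, chosen after seeing the data, left 2 above 0, crygm3 and crygs4, and the first series alone gave 38 of 49 with a median of 0.78. The standard errors of the crystallin fold changes ran from 0.16 to 0.58 on the log2 scale (median 0.45), against a median of 0.14 for all genes. The SD of log2 CPM within a condition had a median of 0.96 over the 51 genes, against 0.30 for all genes. Between the lowest and the highest of the 17 libraries the tested crystallins differed by 2.19 to 25.9-fold, with a median of 9.70-fold, against a median of 2.11-fold for all genes.

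**Figure D2:**
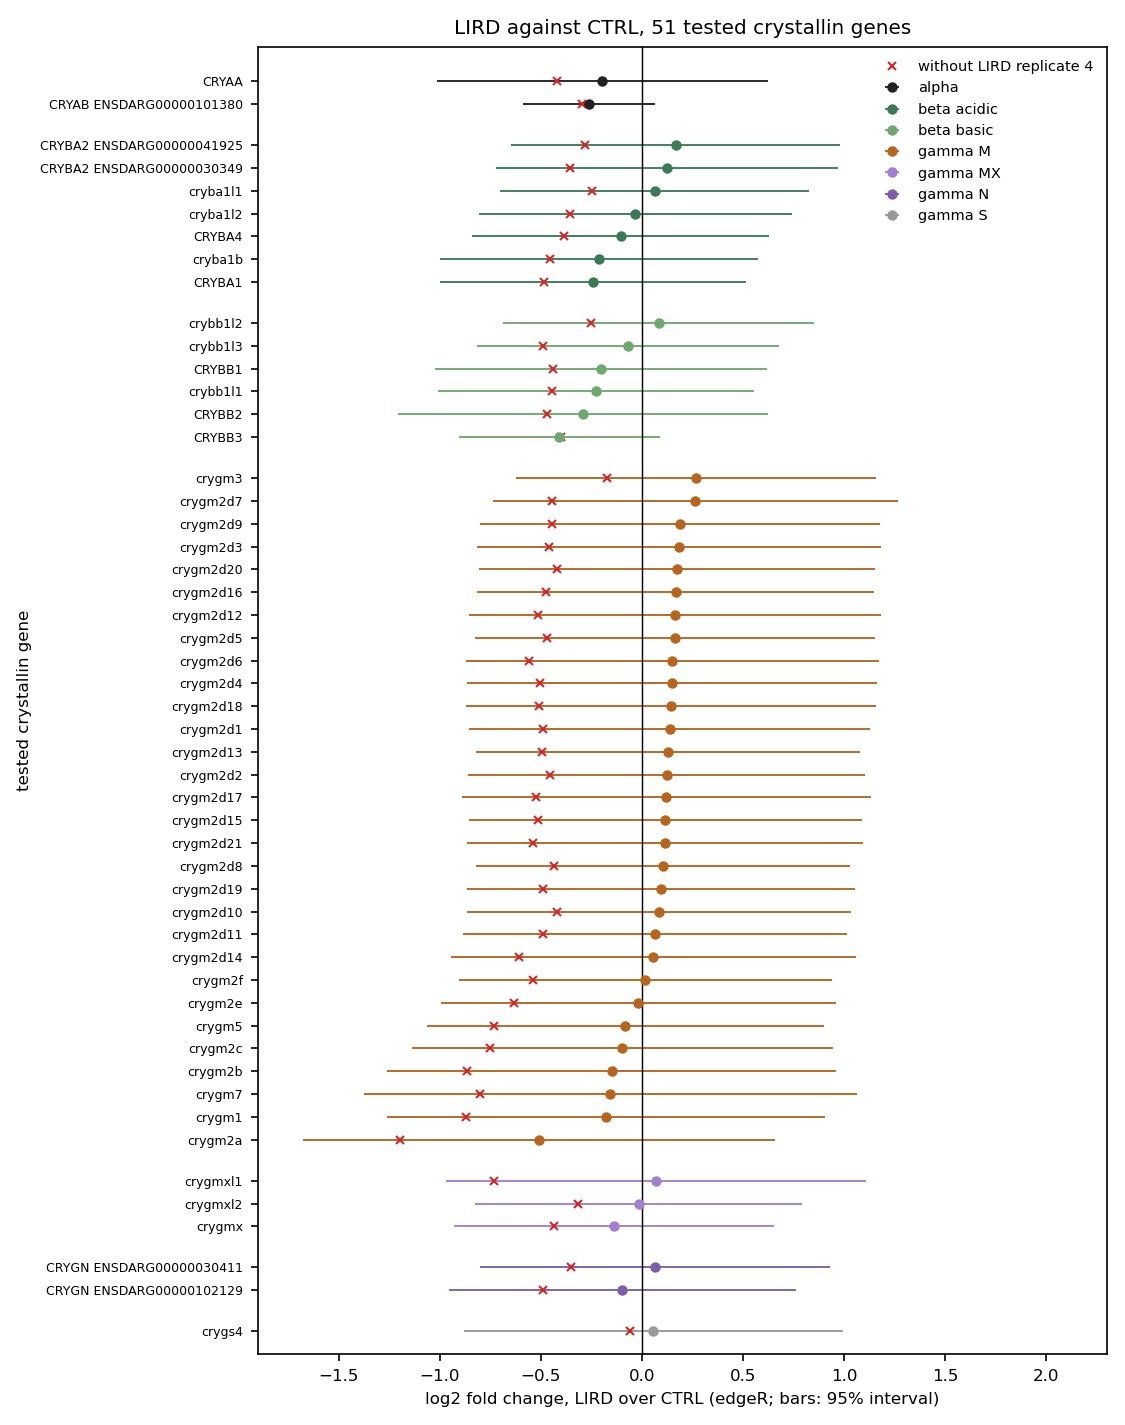
Points give the log2 fold change of LIRD over CTRL for each of the 51 tested crystallin genes, with bars for the 95% interval, grouped and coloured by class; crosses give the value without LIRD replicate 4. Every interval spans 0, the points run from -0.51 (crygm2a) to 0.27 (crygm3), and every cross lies below 0.

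The alpha crystallins are the members most tied to stress in other tissues. CRYAA, the lens-rich alpha A chain, had 21.6, a median of 58.4 and 148 CPM in LIRD and 26.6, a median of 72.9 and 186 CPM in CTRL. Its lowest value was in replicate 2 of either condition, and the conditions overlapped over nearly their whole range. The log2 fold change was -0.20 (SE 0.39, 95% interval -1.02 to 0.62, edgeR FDR 0.866).

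CRYAB, the alpha B chain, is found in many tissues besides the lens and is induced by heat and oxidative stress in mammals. The symbol was shared by a pair of genes. CRYAB ENSDARG00000101380 had 0.815, a median of 1.19 and 1.56 CPM in LIRD and 1.13, a median of 1.34 and 1.79 CPM in CTRL. The CTRL median was exceeded in 4 of 8 LIRD libraries and the highest CTRL library in none. Its log2 fold change of -0.26 (SE 0.16, 95% interval -0.59 to 0.06, edgeR FDR 0.697) had the smallest SE of all tested crystallins. CRYAB ENSDARG00000042621 was not tested, with 0 to 14 counts in any library.

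Acidic beta crystallins showed no call either, with 3 of 7 above 0 and a median log2 fold change of -0.03. CRYBA2 ENSDARG00000041925, with the most reads of the class, had 469, a median of 777 and 2912 CPM in LIRD and 356, a median of 705 and 1878 CPM in CTRL. Its largest value, in LIRD replicate 4, was the only LIRD value above the highest CTRL library, and the log2 fold change was 0.17 (SE 0.39, edgeR FDR 0.885). The gene cryba1l1 had 359, a median of 688 and 1765 CPM in LIRD and 240, a median of 567 and 1396 CPM in CTRL, with a log2 fold change of 0.06 (SE 0.36, edgeR FDR 0.955). CRYBA1 was lower in reads, with 1.72, a median of 3.69 and 9.54 CPM in LIRD and 1.90, a median of 4.05 and 11.5 CPM in CTRL, and had the smallest p of the class at a log2 fold change of -0.24 (SE 0.36, edgeR FDR 0.816). The remaining 4, CRYBA2 ENSDARG00000030349, cryba1b, CRYBA4 and cryba1l2, lay between -0.21 (cryba1b) and 0.12 (CRYBA2 ENSDARG00000030349). Without LIRD replicate 4 the class median was -0.36.

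Basic beta crystallins had 1 of 6 above 0, with a median log2 fold change of -0.21. The gene crybb1l2 had 619, a median of 1240 and 3376 CPM in LIRD and 446, a median of 1046 and 2428 CPM in CTRL, with a log2 fold change of 0.08 (SE 0.37, edgeR FDR 0.941). CRYBB1, a major beta crystallin of the lens fibre, had 177, a median of 612 and 1398 CPM in LIRD and 208, a median of 619 and 1633 CPM in CTRL, with a log2 fold change of -0.20 (SE 0.39, edgeR FDR 0.860). CRYBB3 had few reads, 11 to 40 per library. It stood at 0.0918, a median of 0.171 and 0.230 CPM in LIRD and 0.120, a median of 0.208 and 0.370 CPM in CTRL, and 1 of 8 LIRD libraries was above the CTRL median. Its log2 fold change of -0.41 (SE 0.24, 95% interval -0.90 to 0.09, edgeR FDR 0.697) was the lowest of the beta genes. CRYBB2 was also sparse, at 2 to 38 counts per library.

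Among gamma M genes, the 21 copies named crygm2d took 0.952%, a median of 1.27% and 5.90% of all counts in LIRD and 0.763%, a median of 1.28% and 3.97% in CTRL. All 21 copies had a log2 fold change above 0, between 0.06 and 0.26 with a median of 0.14, and under RLE and upper-quartile normalization the count was also 21. Without LIRD replicate 4 it was 0 of 21, with a median of -0.49, within the second series it was 15 of 21 (median 0.06), within the first 21 of 21 (median 0.90), and with limma-voom 16 of 21. The copies lie in 1 cluster of 34 crystallin genes in the RefSeq order of the GRCz12tu assembly, how the counting divided reads among such close relatives is uncertain, and their shared sign is not 21 separate observations.

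The copy with the most reads, crygm2d19, had 835, a median of 993 and 6255 CPM in LIRD and 692, a median of 1165 and 4127 CPM in CTRL. LIRD replicate 4 was over any other library, while the LIRD median lay below the CTRL median, and the log2 fold change was 0.10 (SE 0.46, 95% interval -0.86 to 1.05, edgeR FDR 0.947). Likewise crygm2d4 had 799, a median of 885 and 6391 CPM in LIRD and 602, a median of 1078 and 3933 CPM in CTRL, with a log2 fold change of 0.15 (SE 0.48, edgeR FDR 0.921). For either copy, 3 of 8 LIRD libraries exceeded the CTRL median.

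The other gamma M genes gave 2 of 9 tested above 0, with a median log2 fold change of -0.10. The gene crygm2a had 0.229, a median of 0.484 and 2.65 CPM in LIRD and 0.216, a median of 0.596 and 2.63 CPM in CTRL. Its log2 fold change of -0.51 (SE 0.56, 95% interval -1.68 to 0.66, edgeR FDR 0.754) was the lowest of all members. The gene lay under 1 CPM in 7 of the 8 LIRD libraries, and its CTRL median was also under 1 CPM. In the first series alone, with 2 libraries of each condition, crygm2c (log2 fold change 0.91, edgeR FDR 0.0454) and crygm2b (log2 fold change 0.99, edgeR FDR 0.0499) were called, against 17.2% of all genes in that setting, and 19 of 49 crystallins had an unadjusted p under 0.05, against 39.1% of all genes. For crygm2c these 4 libraries had 11.2 and 6.73 CPM in LIRD and 5.29 and 4.41 CPM in CTRL, and for crygm2b 3.51 and 2.104 CPM in LIRD and 1.45 and 1.42 CPM in CTRL. In the second series neither was called, against 0.0178% of all genes.

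Gamma MX and gamma N genes lay close to 0 over all libraries, but without LIRD replicate 4 the gamma MX genes ran from -0.73 (crygmxl1) to -0.32 (crygmxl2) and the gamma N genes were at -0.35 and -0.49, and the first series alone gave 0.67 for crygmxl2. The gene crygmxl2 had 98.0, a median of 196 and 506 CPM in LIRD and 58.6, a median of 168 and 457 CPM in CTRL, with a log2 fold change of -0.02 (SE 0.39, edgeR FDR 0.989). Its relative crygmx had 43.5, a median of 114 and 318 CPM in LIRD and 53.3, a median of 133 and 320 CPM in CTRL, with a log2 fold change of -0.14 (SE 0.38, edgeR FDR 0.904). Gamma N crystallins combine features of the beta and gamma genes. CRYGN ENSDARG00000030411 had 214, a median of 425 and 1568 CPM in LIRD and 144, a median of 394 and 1075 CPM in CTRL, with a log2 fold change of 0.06 (SE 0.41, edgeR FDR 0.960). CRYGN ENSDARG00000102129 had 9.30, a median of 14.6 and 53.0 CPM in LIRD and 5.97, a median of 15.2 and 50.1 CPM in CTRL, with a log2 fold change of -0.10 (SE 0.41, edgeR FDR 0.939).

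Gamma S, a lens crystallin kept through adult life in mammals, was hardly present. Only crygs4 was tested, with 1 to 33 counts per library, a log2 fold change of 0.06 and an SE of 0.45 (edgeR FDR 0.968). It had 0.0109, a median of 0.101 and 0.185 CPM in LIRD and 0.0338, a median of 0.0883 and 0.283 CPM in CTRL. CRYGS ENSDARG00000041171 (0 to 13 counts), CRYGS ENSDARG00000042992 (0 to 4 counts), crygs3 (0 to 11 counts), crygm4 (1 to 15 counts) and crygm6 (1 to 13 counts) were removed by the filter on low counts and were not tested.

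**Figure D3:**
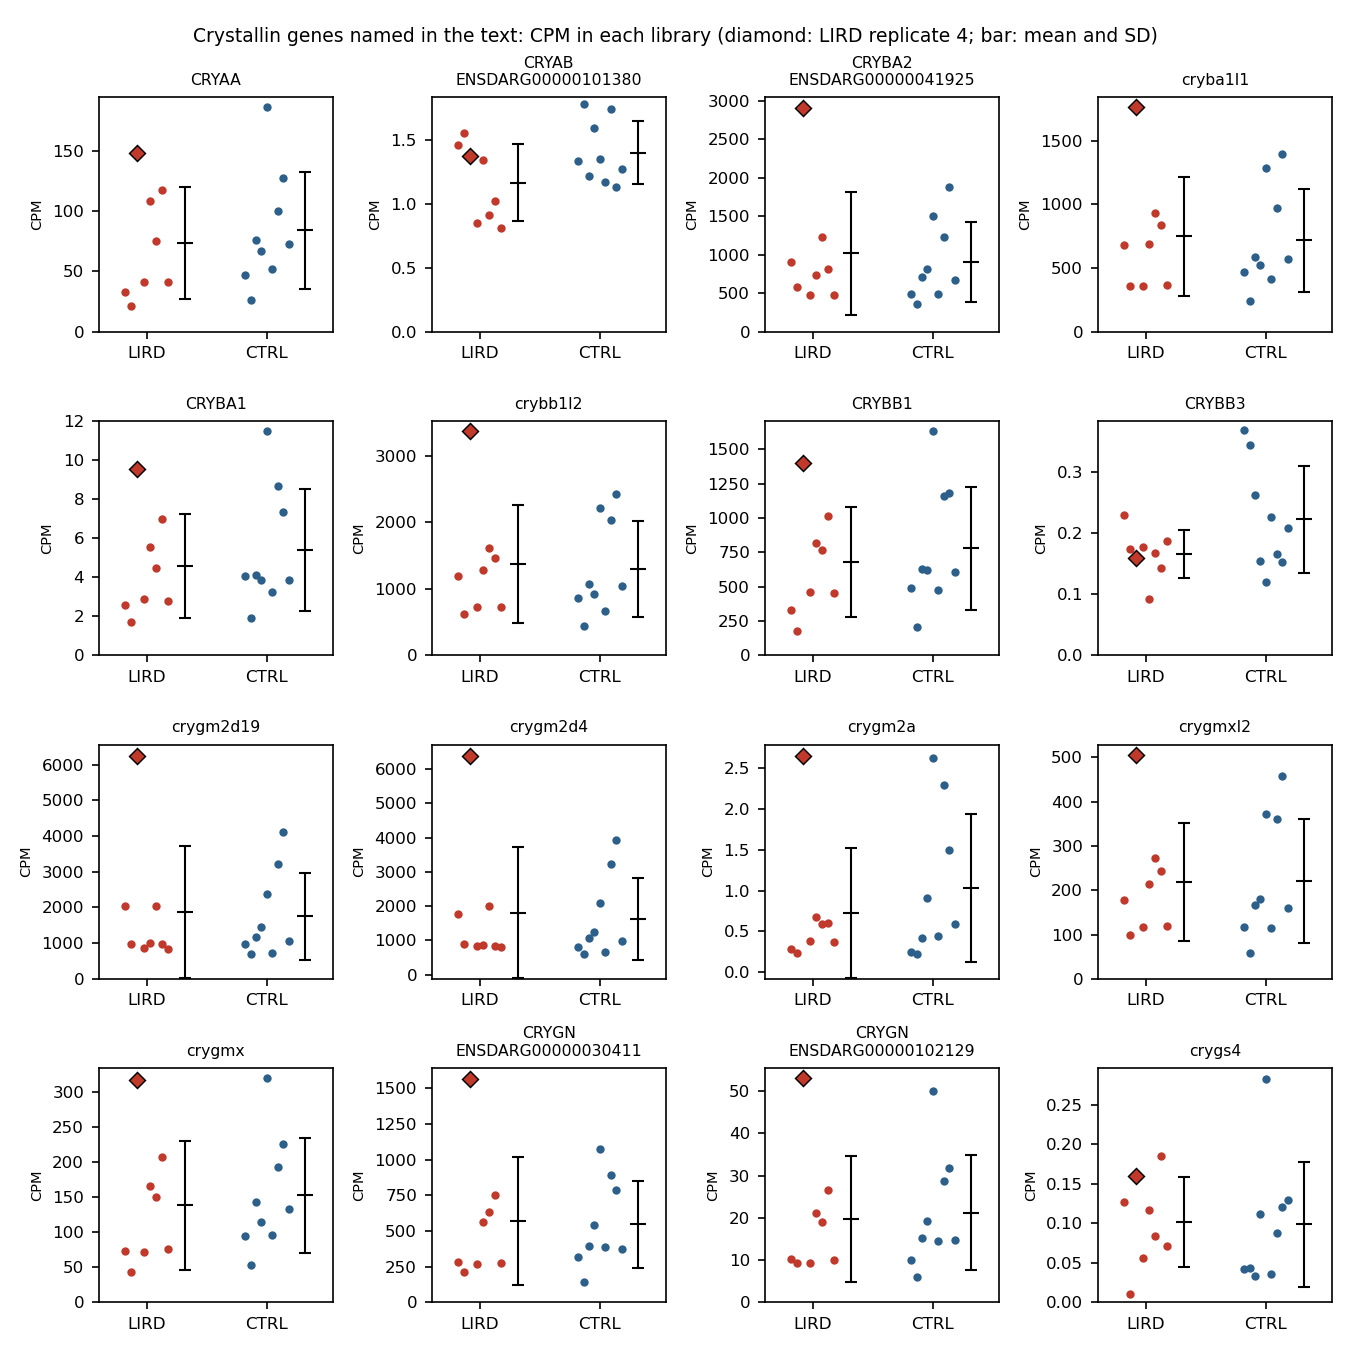
Each panel gives the CPM of 1 crystallin gene in the 8 LIRD libraries (red, left) and the 9 CTRL libraries (blue, right), with the mean and SD beside them and LIRD replicate 4 as a diamond; vertical axes differ between panels and are linear. The diamond is far above the other LIRD points for crygm2d19 (6255 CPM) and crygm2d4 (6391 CPM), but not for CRYAB ENSDARG00000101380 or CRYBB3, and the conditions overlap in every panel.

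The crystallins varied together from library to library. LIRD replicate 4 held the highest LIRD value for 48 of the 51 tested genes, and CTRL replicate 10 or CTRL replicate 5 the highest CTRL value for 29 and 16 of them. Across the 17 libraries, which share depth and pool for all genes, the median Pearson r of log2 CPM between 2 members was 0.91 over 990 pairs of genes with a mean of at least 1 CPM, and between crygm2d copies it was 0.98 (0.89 to 1.00). The lowest values involved CRYAB ENSDARG00000101380, and without it the lowest r was 0.56 in place of -0.16. Among beta genes that lie beside each other in the RefSeq order of the GRCz12tu assembly, r was 0.93 for CRYBA4 with CRYBB1. It was 0.85 for cryba1l1 with crybb1l1 and 0.89 for cryba1l2 with crybb1l2. These values lay within the range of 0.75 to 0.99 (median 0.93) over 28 pairs of an acidic and a basic beta gene of at least 1 CPM. For a further such pair, crybb1l3 with cryba1a, no r was computed, and no member carries the symbol cryba1a.

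Most other lens genes varied with the crystallins from library to library and are given here as measured beside them. A list of 22 lens genes outside the crystallins, 21 of them tested, summed to 337 to 2006 CPM in LIRD and 332 to 1505 CPM in CTRL. None was called by edgeR, DESeq2 or limma-voom, against 0.04, 0.33 and 0.0667% of all genes. In edgeR 0 had an unadjusted p under 0.05 (7.64% of all genes had) and 5 were above 0 (53.8% of all genes were). The median log2 fold change of the list was -0.12. MIP ENSDARG00000013963, the water channel of lens fibres, averaged 193 CPM in LIRD, against 214 CPM in CTRL, MIP ENSDARG00000037285 averaged 122 CPM in LIRD, against 135 CPM in CTRL, and LIM2 ENSDARG00000015445, a fibre membrane protein, averaged 182 CPM in LIRD, against 161 CPM in CTRL. Of the list, tdrd7a alone had a count of 0 in any library. Of the 21 tested, 17 had r with CRYAA of 0.80 to 0.99 (median 0.95) and 4, caprin2, pitx3, TDRD7 and lim2.2, had -0.28 to 0.29. With crygm2d19 the 17 had r of 0.43 to 0.92 and the 4 had -0.57 (caprin2) to 0.66 (lim2.2). With a score of the lens list as a covariate, chosen after seeing the data, 0 crystallins were called, 39 of the 51 were above 0 and the median log2 fold change was 0.26, against 30 and 0.06 without it.

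The most abundant crystallin and the most abundant lens gene were compared across libraries. The log2 CPM of crygm2d19 and of MIP ENSDARG00000013963 gave a Pearson r of 0.706 (two-sided permutation p = 0.00129, adjusted over 5 relations 0.00215) and a Spearman rho of 0.716 (permutation p = 0.00175, adjusted 0.00292) over 17 libraries. Leaving out LIRD replicate 2 and CTRL replicate 2, the farthest from the median of MIP, gave r = 0.689. Within the second series r was 0.787 (n = 13, permutation p = 0.00168), and the first series held too few libraries for a value. Within LIRD alone r was 0.628 (n = 8, exact permutation p = 0.0679) and was 0.182 without replicates 2 and 4, so there the relation rested on those libraries. Within CTRL alone r was 0.811 (n = 9, exact permutation p = 0.00926). With each near-identical pair as 1 library, r was 0.716 (n = 15, permutation p = 0.00265). The r with crygm2d19 was also taken for genes outside the lens list, and ran from -0.26 to 0.66 over 14 skeletal muscle genes. It ran from -0.37 to 0.71 over 9 small heat shock protein genes and from -0.59 to 0.54 over 19 retina genes. Over the surface epithelium genes it ran from -0.41 (evpla) to 0.57 (krt17). In these lists only hspb9, at 0.71, reached 0.706, and CRYM, from the other crystallin-named genes, had 0.82. An r of this size was therefore not confined to the lens list, in which r ran from -0.57 (caprin2) to 0.92 (lim2.1).

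The 4 other relations were chosen after seeing the data. CRYAA followed MIP ENSDARG00000013963 with r = 0.965 and rho = 0.953 (permutation p = 1.0e-05 for each, the smallest that 100000 permutations can give, adjusted 2.5e-05 and 5.0e-05), and with r = 0.944 without the same 2 libraries. That relation was as close within LIRD (r = 0.961) and within CTRL (r = 0.968), and the second series gave 0.931. CRYAB ENSDARG00000101380 gave r = -0.11 and rho = -0.20 with MIP ENSDARG00000013963 (permutation p = 0.683 and 0.438, adjusted 0.683 and 0.438), and r = 0.229 without the 2 libraries. Its sign was not stable, since r was 0.433 within the second series, -0.080 there without LIRD replicates 5 and 11, -0.064 within LIRD and -0.40 within CTRL. The genes crygm2d19 and CRYAA gave r = 0.619 and rho = 0.676 with each other (permutation p = 0.00788 and 0.00388, adjusted 0.00985 and 0.00485), and r = 0.573 without LIRD replicate 2 and CTRL replicate 2. That r was 0.448 within LIRD, 0.833 within CTRL and 0.693 within the second series, and within LIRD it was -0.17 without replicates 2 and 4. With each near-identical pair as 1 library it was 0.612 (n = 15, permutation p = 0.0166). In that setting r with MIP ENSDARG00000013963 was 0.967 for CRYAA and -0.24 for CRYAB ENSDARG00000101380.

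**Figure D4:**
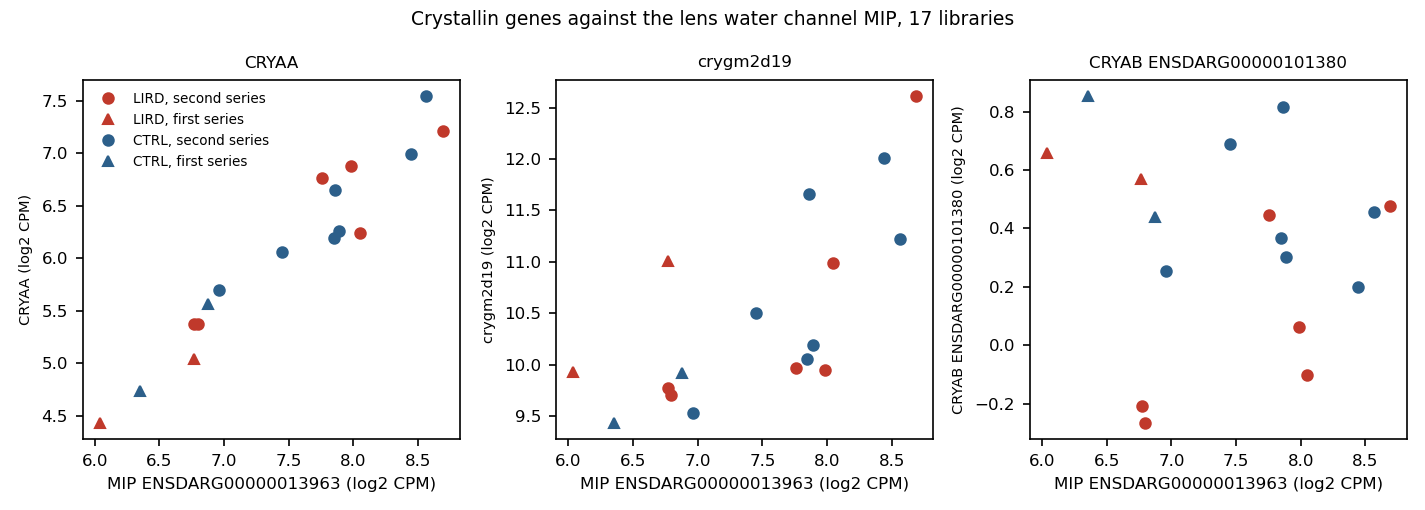
Each point is 1 library, with the log2 CPM of the lens water channel MIP ENSDARG00000013963 on the horizontal axis and the log2 CPM of CRYAA, crygm2d19 or CRYAB ENSDARG00000101380 on the vertical axis; red is LIRD, blue is CTRL, and triangles are the first library series. CRYAA lies close to a line (r = 0.965), crygm2d19 scatters more widely (r = 0.706), and CRYAB ENSDARG00000101380 shows no line over the 17 libraries (r = -0.11).

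Across members, r with CRYAA is given by class as a description, and the ranges overlapped. It ran from 0.76 to 0.99 for the acidic beta genes (median 0.92) and from 0.83 to 0.99 for the 4 basic beta genes over 1 CPM (median 0.92), was 0.93 and 0.94 for the gamma N genes, and ran from 0.74 to 0.99 for the gamma MX genes (median 0.87). CRYBA2 ENSDARG00000041925 had r = 0.759 with CRYAA and 0.958 with crygm2d19. The crygm2d copies had r with CRYAA of 0.56 to 0.79 (median 0.65) and r with crygm2d19 of 0.94 to 1.00 (median 0.99). The other gamma M genes had 0.56 to 0.87 with CRYAA (median 0.75) and 0.79 to 0.98 with crygm2d19 (median 0.89). The sparse CRYBB3, with 11 to 40 counts per library, had r = -0.61 with CRYAA. CRYBB2 and crygs4, also sparse, had r = 0.59 and 0.76 with CRYAA. The cause of the negative value was not tested.

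The balance between gamma M and alpha transcripts differed between libraries. The sum of the 21 crygm2d copies was 95.7, a median of 271 and 631 times the CRYAA value in LIRD and 142, a median of 204 and 355 times in CTRL. On the log2 scale the ratio averaged 8.04 ± 1.01 in LIRD (SD, n = 8) and 7.74 ± 0.50 in CTRL (SD, n = 9), and the difference of 0.30 was smaller than either SD. It was -0.02 within the second series. In the first series, with 2 libraries of each condition, the ratios were 631 and 469 in LIRD and 204 and 262 in CTRL. LIRD libraries held both the 3 highest ratios, in replicates 1, 4 and 2 (631, 483 and 469), and the 2 lowest, in replicates 10 and 6 (95.7 and 106). Read counts are not scaled by gene length, so the ratio is not a ratio of molecules. Whether technical differences between libraries, such as RNA quality, bear on it was not tested.

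Ribosomal protein mRNA moved with this ratio. The 77 ribosomal protein genes took 4.06%, a median of 6.60% and 13.5% of all counts in LIRD and 4.83%, a median of 5.88% and 8.78% in CTRL. The share was 13.5% in LIRD replicate 1 and 4.06% in LIRD replicate 6, which had ratios of 631 and 106. Within the first series it was 13.5 and 10.4% in LIRD and 7.15 and 6.21% in CTRL. The log2 difference between crygm2d19 and CRYAA correlated with the ribosomal protein score at r = 0.889 and rho = 0.848 (permutation p = 1.0e-05 and 3.0e-05, adjusted 2.5e-05 and 7.5e-05), and at r = 0.816 without LIRD replicates 1 and 2. Within the second series r was 0.836 (n = 13), within LIRD 0.908 (n = 8, exact permutation p = 0.00156), and within CTRL 0.807 (n = 9, exact permutation p = 0.00783), the last being 0.442 without CTRL replicates 8 and 10. The part of ribosomal protein content in the crystallin values was not tested beyond the covariate given above.

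**Figure D5:**
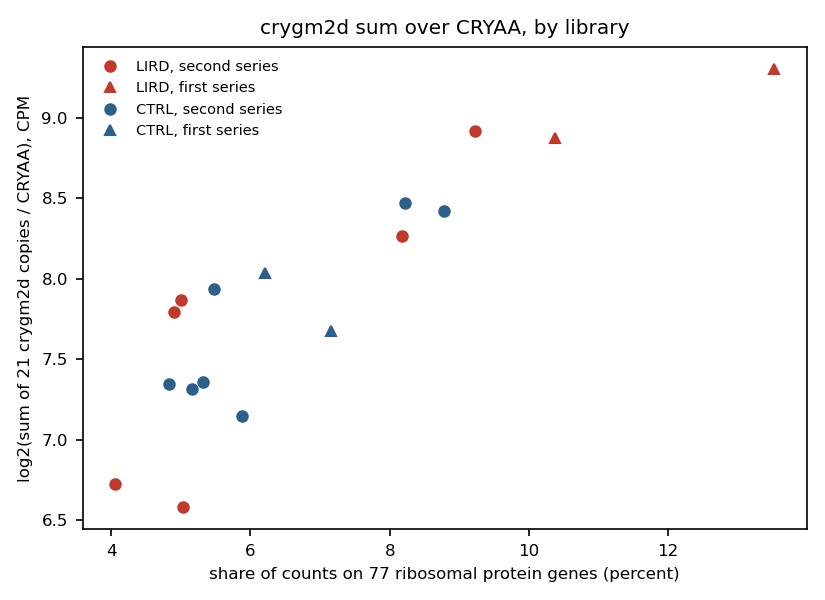
Each point is 1 library, with the percent of counts on 77 ribosomal protein genes on the horizontal axis and the log2 ratio of the summed crygm2d copies to CRYAA on the vertical axis; red is LIRD, blue is CTRL, and triangles are the first series. LIRD libraries hold both ends of the ratio, with replicate 1 at 13.5% and a log2 ratio of 9.30 and replicate 10 at 5.03% and 6.58. The lowest ribosomal protein share is that of LIRD replicate 6, at 4.06% and a log2 ratio of 6.72.

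Genes outside the rule that followed the crystallins most closely were named by their r with the mean centred profile of the 45 members with at least 1 CPM, over 17 libraries and 22452 genes. The highest r was 0.989 for si:dkey-57a22.15, followed by lenep with 0.974, lim2.1 with 0.969, si:ch211-255g12.6 with 0.967 and crybgx with 0.967. LIM2 ENSDARG00000015445, YAE1, jac8, LIM2 ENSDARG00000041295 and GJE1 came next, between 0.958 and 0.944. None of the 10 was called by edgeR (0.04% of all genes were), with FDR values of 0.849 to 0.999. The gene jac8 was at 0.380 CPM in LIRD, against 0.377 CPM in CTRL.

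Chaperones of the alpha crystallin family gave no call. Of 9 other small heat shock protein genes, 0 were called by edgeR (0.04% of all genes were). An unadjusted p under 0.05 was found for 1 (7.64% of all genes), and 3 were above 0 (53.8% of all genes). HSPB1 averaged 14.0 CPM in LIRD, against 14.3 CPM in CTRL, HSPB8 11.7 CPM in LIRD, against 12.7 CPM in CTRL, and hspb15 9.60 CPM in LIRD, against 8.66 CPM in CTRL. HSPB3, the one with p = 0.0489 (edgeR, FDR 0.650), had 0.163 CPM in LIRD, against 0.0981 CPM in CTRL, and was named after its value was seen. Over the 9 genes r with CRYAA lay between -0.28 and 0.23, and r with crygm2d19 between -0.37 (HSPB8) and 0.71 (hspb9).

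A list of genes outside the rule that carry a crystallin name or the beta/gamma fold was also without a call in edgeR. The count was 0 of 6 (0.04% of all genes were called) and 0 at an unadjusted p under 0.05 (7.64% of all genes). The list did not hold crybgx, named above for its r of 0.967 with the crystallin profile. That gene averaged 162 CPM in LIRD, against 166 CPM in CTRL, more than any gene of the list. The fold proteins crybg1a and crybg1b averaged 31.4 and 27.6 CPM in LIRD and 35.1 and 31.7 CPM in CTRL, and cryzl1, of the quinone reductase family, 15.8 CPM in LIRD, against 14.1 CPM in CTRL. Of 15 regulators known to act on crystallin genes in vertebrates, 0 were called by edgeR (0.04% of all genes were). An unadjusted p under 0.05 was found for 1 (7.64% of all genes). It was SIX3 ENSDARG00000054879 with 117 CPM in LIRD, against 101 CPM in CTRL (edgeR p = 0.0480, FDR 0.647). PAX6 ENSDARG00000103379, the eye field factor, averaged 181 CPM in LIRD, against 180 CPM in CTRL, and PAX6 ENSDARG00000045936 142 CPM in LIRD, against 145 CPM in CTRL. These factors are also made by retinal neurons and glia.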

How the data were processed

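Raw, unnormalized counts per gene were deposited by the authors, who had used Trimmomatic for trimming, STAR for alignment to GRCz11 and featureCounts for strand-specific counting on exons (versions 0.39, 2.7.9a and, for Subread, 2.0.1 in the submitters' processing notes). The table held 17 of the 23 listed samples, and 6 were not analysed here. In the paper, samples that stood apart in a principal component analysis and did not group with their replicates were left out. Its figure legends count as many libraries of each condition as the table held. Whether the 6 are the samples left out is not stated. If so, the libraries were selected on their expression, which bears on the SD, SE and p-values given here. The effect of such a selection was not tested. A symbol was found for 93.0% of identifiers. How multi-mapped reads were handled is not given in the sources used here, which bears on the crygm2d copies.

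The deposited counts were scaled (TMM), turned into CPM and log2 CPM (prior count 2) and tested by quasi-likelihood fits in edgeR 4.0.16 (R 4.3.3) over the 22503 genes kept by filterByExpr. DESeq2 1.42.0, limma-voom (limma 3.58.1), other scalings, other count filters, the library series as a covariate, each series alone, a replicate block and each library left out were alternatives. The p-values of the fits set the difference between conditions against the spread between libraries. Those of the permutation tests set a correlation against shuffled libraries. Permutation tests used 100000 draws, or all orders below 10 libraries (Python 3.11.15, scipy 1.17.1). The code was tested on simulated data of 22503 genes, where edgeR called 199 of 200 genes changed by a log2 fold change of 2 and 174 of 200 changed by 1. The changed genes were drawn from all genes over 1 CPM. The crystallins vary more (median SE 0.45, against 0.14 for all genes), so these rates do not hold for them.

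Members and lists (lens, retina, surface epithelium, skeletal muscle, small heat shock proteins, other crystallin-named genes, regulators) were chosen with earlier results of these data known. Named were every alpha gene, in each other class the 2 genes with the highest mean CPM and the 1 with the smallest p, every gene called, the 3 genes with the highest mean CPM of each list, and the 10 genes closest to the crystallin profile, except 1 gene that is not reported here. The gamma MX class was set apart after seeing the data. Symbols given to 2 genes carry the Ensembl identifier.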

Additional observations from a re-analysis of the deposited data

Results flagged for a closer look

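Libraries standing apart were looked for in CPM or percent, not on the log2 scale. Such values are skewed here (crygm2d19 in LIRD had a mean of 1876 and a median of 993.5 CPM). The chance rate of about 1 in 20, which holds for normally distributed values, is therefore no measure for the count of flags. Of 36 sets of values checked within a condition, 11 held a library that stood apart from the rest by Dixon's criterion. Of these, 10 were LIRD replicate 4 as the highest of 8 LIRD libraries: CRYBA2 ENSDARG00000041925 at 2912 CPM, cryba1l1 at 1765 CPM, crybb1l2 at 3376 CPM, crygm2d19 at 6255 CPM, crygm2d4 at 6391 CPM, crygm2a at 2.653 CPM, crygmxl2 at 506.4 CPM, CRYGN ENSDARG00000030411 at 1568 CPM, CRYGN ENSDARG00000102129 at 52.97 CPM, and all crystallin genes at 7.292% of the counts. The same library had the largest sum of lens markers, at 2006 CPM. In CTRL, replicate 5 stood apart for crygs4 at 0.2826 CPM, a value that rests on 33 counts. These genes vary together, so the flags are not separate observations, and their cause was not tested.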

How the results depend on the processing

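The number of crystallin genes called was 0 under every alternative except the first series alone (2, with 1 lens marker), and 0 with each library left out. The number with a fold change above 0 was 2 with the ribosomal protein covariate, which was added after seeing the data, and 0 to 44 with 1 library left out. Among all genes, 9 were called, and 80 with DESeq2, 15 with limma-voom, 14 with at least 10 counts in every library, 17 with the library series as a covariate, 4 in the second series alone, 3891 in the first alone, 5 with the near-identical pairs added up, 19 with the ribosomal protein covariate, and 7 to 39 with 1 library left out. The correlation of crygm2d19 with MIP ENSDARG00000013963 was 0.628 in LIRD alone, past no threshold. The cause of these shifts was not tested.

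Over the 7 replicate numbers that both conditions hold, correlations of deviations ran from -0.56 to 0.416, with 5 over 0.1 and those of replicates 4 and 10 below 0, so the numbers were not taken to pair the libraries. With the replicate block, 0 genes were called of 22499 in edgeR, and the log2 fold change became 0.12 for crygmxl2 and -0.0033 for crygs4. Fold changes of genes with no call also turned sign elsewhere. With the ribosomal protein covariate they were -0.026 for CRYBA2 ENSDARG00000041925, -0.0355 for cryba1l1, -0.0047 for crybb1l2, -0.19 for crygm2d19, -0.15 for crygm2d4 and -0.0007 for CRYGN ENSDARG00000030411. With limma-voom they were -0.0067 for crygm2d19, 0.058 for crygmxl2 and -0.028 for CRYGN ENSDARG00000030411. The second series gave -0.021 for crygm2d19 and -0.0080 for crygs4. The first gave 0.20 for crygm2a, 0.67 for crygmxl2 and 0.30 for CRYGN ENSDARG00000102129. For crygmxl2 the series covariate gave 0.093, the added pairs 0.0295 and the lens marker covariate 0.26, which gave 0.10 for CRYGN ENSDARG00000102129.

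With 1 library left out, log2 fold changes ran from -0.42 to 0.043 for CRYAA, from -0.28 to 0.38 for CRYBA2 ENSDARG00000041925, from -0.25 to 0.24 for cryba1l1, from -0.25 to 0.25 for crybb1l2, from -0.44 to 0.0115 for CRYBB1, from -0.49 to 0.36 for crygm2d19, from -0.51 to 0.43 for crygm2d4, from -0.32 to 0.19 for crygmxl2, from -0.43 to 0.074 for crygmx, from -0.35 to 0.25 for CRYGN ENSDARG00000030411, from -0.49 to 0.17 for CRYGN ENSDARG00000102129 and from -0.12 to 0.21 for crygs4. Normalization by RLE, by upper quartile or by TMM without crystallin and lens genes left the number of crystallins above 0 at 30.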

Other observations

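Markers of other tissues that a dissected eye could carry were also measured. Of 10 surface epithelium genes, 0 were called by edgeR (0.04% of all genes were). An unadjusted p under 0.05 was found for 2 (7.64% of all genes), and 8 had a log2 fold change above 0 (53.8% of all genes). The fish skin keratins krt4, krt91 and krt5 averaged 4045, 2312 and 2238 CPM in LIRD and 3854, 2139 and 2174 CPM in CTRL. The 2 genes with an unadjusted p under 0.05 went opposite ways and were named after their values were seen. They were krt17 with a log2 fold change of 0.77 (edgeR FDR 0.632) and PPL with -0.25 (edgeR FDR 0.596). Of 14 skeletal muscle genes, 0 were called (0.04% of all genes), 0 had an unadjusted p under 0.05 (7.64%) and 10 were above 0 (53.8%). The muscle actin actc1b averaged 2239 CPM in LIRD, against 2304 CPM in CTRL. The creatine kinase ckmb averaged 944 CPM in LIRD, against 841 CPM in CTRL, and ckma 742 CPM in LIRD, against 617 CPM in CTRL. Of the 19 retina genes, 0 were called (0.04% of all genes), 4 had an unadjusted p under 0.05 (7.64%) and 8 were above 0 (53.8%). These 4, also named after their values were seen, were PDE6C, the cone phosphodiesterase (804.6 CPM in LIRD, against 1293 CPM in CTRL, log2 fold change -0.68, edgeR FDR 0.325), the cone arrestins ARR3 ENSDARG00000056511 (-0.71, edgeR FDR 0.511) and ARR3 ENSDARG00000098475 (-0.66, edgeR FDR 0.611), and rlbp1a, a retinoid carrier of Muller glia (0.30, edgeR FDR 0.611). The summed levels of the epithelium list ranged from 5871 to 15590 CPM in LIRD and from 7377 to 12600 CPM in CTRL.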
